A study of Arabidopsis thaliana with 18 samples.

Results

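AMY1, DPE1, SAG29 and SWEETIE are 4 genes of starch breakdown and sugar movement, described here in the shoots and roots of potassium-starved, caesium-treated and control Arabidopsis thaliana. They were picked by symbol or locus among the 13355 genes that had a probe set annotated to 1 gene, and each had 1 such probe set. The choice was made knowing that all 4 had differed between potassium-starved and control shoots, so that difference, and any comparison that shares the potassium-starved shoot arrays, is given as a description with no test. Affymetrix ATH1 arrays, hybridised with biotin-labelled RNA, had measured 6 groups of 3 arrays each: potassium-starved, caesium-treated and control shoots, and potassium-starved, caesium-treated and control roots. All plants were of the accession Ws-2 at growth stage 3.90. They were raised at 22 °C, 80% humidity and a 16 h day on 0.8% agar with 1% sucrose, a sugar supply that the controls shared. The labels give the same growth medium for all 18 samples, the potassium-starved ones included. How much caesium was used, for how long, and how potassium was removed the sources used here do not state.

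Leaves store part of the day's photosynthate as starch granules in the chloroplast and break it down at night to maltose and glucose, which leave the plastid and are turned into sucrose. DPE1, the plastid disproportionating enzyme, works inside this route by rearranging short maltooligosaccharides into longer chains and glucose. AMY1 is an alpha-amylase with a signal for secretion, so it acts outside the plastid, and it is known from senescing and stressed leaves. SAG29, also called SWEET15, is a plasma membrane sucrose transporter of the SWEET family and a marker of leaf senescence. SWEETIE is a large protein named for a mutant with altered sugar, starch and trehalose metabolism, and despite its name it is not a SWEET transporter. Potassium activates starch synthase and other enzymes of carbon metabolism and is needed for loading sucrose into the phloem. Caesium is an alkali metal that roots take up through potassium transport systems.

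The labelled tissues carried their markers. In control roots 5 of 5 named shoot markers were lower and 3 of 3 named root markers higher than in control shoots. Over all probe sets 22.5% were lower and 30.6% higher there. Log2 signals correlated at 0.933 to 0.964 between arrays of 1 group. Some shoot arrays stood apart in a root marker: on the arrays numbered 2, PYK10, an abundant root beta-glucosidase, had a signal of 902.7 in potassium-starved, 948.5 in caesium-treated and 1200.0 in control shoots, while the other 6 shoot arrays ranged from 46.88 to 521.0. The other named root markers did not stand apart in this way. In the same order EXPA18 had 19.6, 26.8 and 30.1 there, against 15.2 to 26.6 on the other 6 shoot arrays. EXPA7 had 14.7, 21.4 and 23.1, against 14.0 to 24.4. The summed signal of the 5 shoot markers was 8013 to 10280 in potassium-starved shoots, 9490 to 12671 in caesium-treated shoots and 12620 to 14483 in control shoots. Of these, 3 (PRK, LHCB4.2 and LHCB4.1) fell in potassium-starved shoots, as did 16.7% of all probe sets. In caesium-treated shoots 0 of 5 fell, in a comparison where only 0.566% of probe sets were called. The 3'/5' ratio of actin, a sign of RNA quality, was 5.52 to 6.11 in potassium-starved, 4.83 to 6.02 in caesium-treated and 3.26 to 5.99 in control shoots. The part of these differences in the results below was not tested. The plants were sampled in bulk, so fewer cells of a type and less RNA per cell cannot be told apart.

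AMY1 (AT4G25000) stood far higher in potassium-starved shoots than on any other array. Its signal there was 1197, 577 and 702 on replicates 1, 2 and 3 (825 ± 328, SD, n = 3). It was 51.8, 71.6 and 77.9 in caesium-treated shoots (67.1 ± 13.6) and 34.0, 26.8 and 27.0 in control shoots (29.3 ± 4.07). These 3 shoot groups did not overlap, and the lowest potassium-starved shoot array lay 7.41 times above the highest of the 15 arrays of the other groups. In roots the signal was 24.7, 18.2 and 23.9 under potassium starvation, 27.8, 21.3 and 16.5 under caesium and 26.7, 10.3 and 20.9 in controls. The 3 root groups overlapped, and on 0 of the 9 root arrays did AMY1 exceed the 40th percentile of its array. From the highest geometric mean down, the order was potassium-starved shoots (786), caesium-treated shoots (66.1), control shoots (29.1), potassium-starved roots (22.1), caesium-treated roots (21.4) and control roots (17.9).

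SAG29 (AT5G13170) was lowest in control shoots and highest in potassium-starved shoots. Its signal was 278, 449 and 253 in potassium-starved shoots (327 ± 107, SD, n = 3). In caesium-treated shoots it was 47.8, 20.0 and 159 (75.7 ± 73.7), and in control shoots 9.91, 6.80 and 5.64 (7.45 ± 2.21). The caesium-treated shoots were the least even group of this gene, with replicate 3 well above the other two, and no array of theirs reached the control or the potassium-starved range. The control shoot signals stood only at the 16.1 to 21.5 percentile of all probe sets on their arrays, where the size of a difference is uncertain. In roots SAG29 had 45.3, 31.4 and 20.7 under potassium starvation, 28.2, 18.0 and 18.9 under caesium and 12.5, 13.7 and 34.2 in controls. The order of geometric means was potassium-starved shoots (316), caesium-treated shoots (53.4), potassium-starved roots (30.9), caesium-treated roots (21.2), control roots (18.1) and control shoots (7.25). The caesium-treated shoots and the 3 root groups each overlapped with their neighbour in that order, and both ends stood clear of the rest.

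DPE1 (AT5G64860) was lower in every root group than in every shoot group. It had a signal of 61.7, 33.2 and 83.6 in potassium-starved shoots (59.5 ± 25.2, SD, n = 3), 99.4, 95.7 and 96.4 in caesium-treated shoots (97.2 ± 1.96), and 170.5, 124 and 132 in control shoots (142 ± 25.0). The 3 shoot groups did not overlap. In roots it had 25.5, 13.3 and 17.3 under potassium starvation, 30.4, 21.7 and 19.0 under caesium and 32.9, 30.0 and 15.6 in controls, and these ranges overlapped. From the lowest geometric mean up, the order was potassium-starved roots (18.0), caesium-treated roots (23.2), control roots (24.9), potassium-starved shoots (55.5), caesium-treated shoots (97.1) and control shoots (141).

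SWEETIE (AT1G67140) differed from the other 3 genes in that 5 of the 6 groups lay close together. Potassium-starved shoots had 3.47, 3.00 and 16.5 (7.66 ± 7.67, SD, n = 3), with replicate 3 above the other two. Caesium-treated shoots had 64.2, 57.9 and 41.8 (54.7 ± 11.6) and control shoots 64.3, 41.1 and 61.7 (55.7 ± 12.7). The potassium-starved shoot signals stood at the 11.7 to 30.9 percentile of their arrays, and the highest of them was 0.402 times the lowest of the other 6 shoot arrays. Roots had 64.7, 38.3 and 55.4 under potassium starvation, 74.7, 69.6 and 51.1 under caesium and 76.0, 78.6 and 54.3 in controls. From the lowest geometric mean up, the order was potassium-starved shoots (5.56), potassium-starved roots (51.6), caesium-treated shoots (53.8), control shoots (54.6), caesium-treated roots (64.3) and control roots (68.7). Apart from the first, neighbours in that order overlapped.

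**Figure D1:**
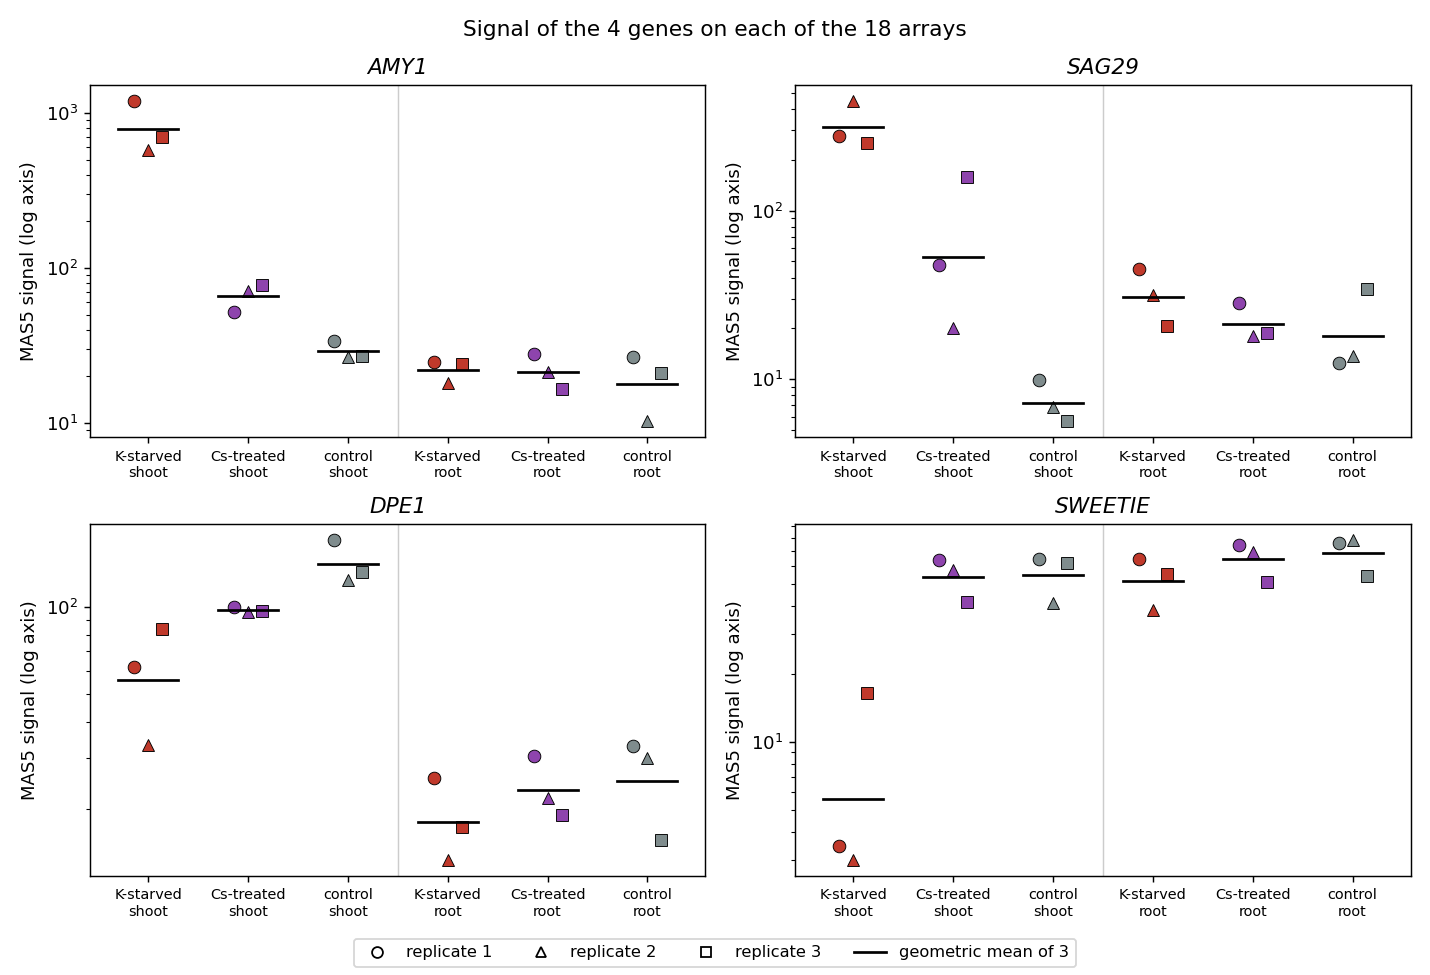
Signal (MAS5, log axis) of AMY1, SAG29, DPE1 and SWEETIE on each of the 18 arrays, by group, with a marker shape per replicate number and a line at the geometric mean of 3. AMY1 and SAG29 stand highest and SWEETIE lowest in potassium-starved shoots, from 577 to 1197, from 253 to 449 and from 3.00 to 16.5, and DPE1 is at most 32.9 in the root groups.

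Potassium-starved shoots were the group by which the genes came to notice, and the differences from control shoots are listed as such. On the log2 scale, potassium-starved minus control, they were 4.75 ± 0.275 for AMY1 (SE, limma), 5.45 ± 0.596 for SAG29, -1.34 ± 0.294 for DPE1 and -3.30 ± 0.563 for SWEETIE. Among all 14665 probe sets compared, AMY1 ranked 10 and SAG29 ranked 2 from the highest difference, and SWEETIE ranked 16 and DPE1 686 from the lowest. The background of that comparison was broad, with 28.1% of probe sets called at an adjusted p under 0.05 and 42.7% without overlap between the groups. Adding 16 to each signal before the log, which damps low values, left 4.15 for AMY1 and gave 3.83 for SAG29 and -1.63 for SWEETIE, whose low groups held the signals of 16.5 and less given above.

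By replicate number, the size of the differences varied. Potassium-starved minus control shoots gave 5.14, 4.43 and 4.70 for AMY1 with numbers 1, 2 and 3, and 4.81, 6.05 and 5.48 for SAG29. The differences were -1.47, -1.90 and -0.66 for DPE1 and -4.21, -3.77 and -1.90 for SWEETIE. In DPE1 and SWEETIE number 3 showed the smallest difference. With the shoot arrays numbered 2 left out, an alternative chosen after seeing their PYK10 signal, the differences were 4.92 for AMY1, 5.15 for SAG29, -1.06 for DPE1 and -3.06 for SWEETIE.

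Caesium-treated shoots against control shoots asked whether caesium moved the same genes. These arrays took no part in choosing the genes, although the control shoot arrays did. AMY1 and SAG29 were higher on all 3 caesium-treated arrays than on all 3 control arrays, DPE1 was lower on all 3, and SWEETIE overlapped. Over all probe sets compared, 14.6% were higher and 10.5% lower without overlap in this comparison, and 0.566% were called.

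In caesium-treated shoots 0 of the 4 genes passed in the fit of the 9 shoot arrays without the replicate number. SAG29 differed by 2.88 ± 0.596 (log2, SE) with an adjusted p of 0.0595, and AMY1 by 1.18 ± 0.275 (0.58 to 1.79) with an adjusted p of 0.0792 by limma. SAG29 entered that fit only through the potassium-starved shoots, since 0 of 3 control and 2 of 3 caesium-treated arrays exceeded the 40th percentile, and with no filter on any probe set its adjusted p was 0.0889 (limma). Both were called when the replicate number was a block, with the same filter, at an adjusted p of 0.0274 for SAG29 and 0.0366 for AMY1, in a fit that called 4.64% of all probe sets. Same-numbered shoot arrays deviated together, which is why the blocked values stand here. Weighting the arrays also called both (1.33 for AMY1, 3.57 for SAG29), and fitting all 18 arrays together called SAG29. By number, AMY1 differed by 0.61, 1.42 and 1.53 and SAG29 by 2.27, 1.56 and 4.82. Leaving out caesium-treated shoot replicate 3, the high array of SAG29, gave 2.09 for SAG29 (adjusted p = 0.171 by limma).

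DPE1 and SWEETIE did not pass in caesium-treated shoots in either fit. DPE1 differed by -0.53 ± 0.294 (95% interval -1.18 to 0.12, limma adjusted p = 0.457), with differences by number of -0.78, -0.37 and -0.45. SWEETIE differed by -0.02 ± 0.563, and its interval of -1.27 to 1.22 still holds changes of more than 2-fold either way. Both standard errors pool the spread of all shoot arrays, the potassium-starved ones included. In potassium-starved shoots the log2 SD of SWEETIE was 1.36, against 0.32 in caesium-treated and 0.36 in control shoots. For DPE1 it was 0.68, against 0.03 and 0.25 in the same order. The interval widths and the adjusted p of DPE1 therefore rest in part on arrays outside this comparison. Caesium-treated minus potassium-starved shoots, a description since it shares the potassium-starved arrays, was -3.57 for AMY1, -2.56 for SAG29, 0.81 for DPE1 and 3.27 for SWEETIE, and the ranges of these 2 groups did not overlap for any of the 4, as for 44.5% of all probe sets.

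**Figure D2:**
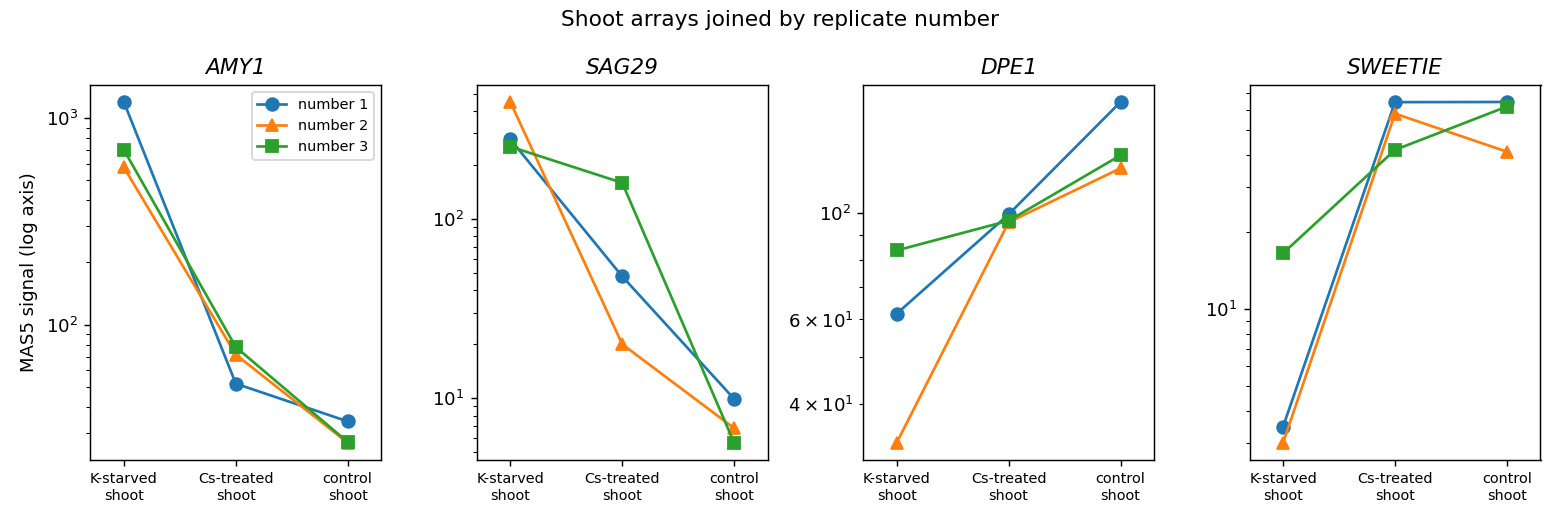
Signal (MAS5, log axis) of the 4 genes in potassium-starved, caesium-treated and control shoots, with a line joining the arrays of each replicate number. AMY1 and SAG29 descend and DPE1 climbs from left to right for every number, and SWEETIE is low in potassium-starved shoots only, at 3.00 to 16.5.

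Roots were measured on arrays that took no part in choosing the genes, and 0 of the 3 testable genes was called in any root comparison. SAG29 exceeded the 40th percentile on 2 of 3 potassium-starved, 0 of 3 caesium-treated and 1 of 3 control root arrays. DPE1 did so on 0, 1 and 2 of 3, so both only just passed the filter and rest on low signals. SWEETIE exceeded it on 3 of 3 arrays of each root group. In potassium-starved against control roots SAG29 differed by 0.77 ± 0.425 (95% interval -0.16 to 1.71, adjusted p = 0.362 by limma), DPE1 by -0.46 ± 0.368 (-1.28 to 0.35, adjusted p = 0.532) and SWEETIE by -0.41 ± 0.239 (-0.94 to 0.11, adjusted p = 0.387). Each of these mean differences had the sign it had in shoots, with groups that overlapped. By replicate number they were 1.85, 1.19 and -0.72 for SAG29 and -0.36, -1.18 and 0.15 for DPE1. For SWEETIE they were -0.23, -1.04 and 0.03, so number 3 had the opposite sign for all 3 genes. The share of probe sets called there was 1.09%, and 22.3% had groups without overlap. AMY1 did not pass the filter on low signals and was not tested, and its values without that filter were 0.30 ± 0.364 for potassium-starved and 0.26 ± 0.364 for caesium-treated against control roots.

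Caesium-treated against control roots gave smaller values still. SAG29 differed by 0.23 ± 0.425 (95% interval -0.70 to 1.17, limma adjusted p = 0.902), DPE1 by -0.10 ± 0.368 (-0.91 to 0.71, adjusted p = 0.958) and SWEETIE by -0.10 ± 0.239 (-0.62 to 0.43, adjusted p = 0.93). In this comparison limma called 0 of 14432 probe sets, a share of 0%, while 1399 had an unadjusted p under 0.05, and with the replicate number as a block 42 probe sets were called (0.291%), none of them among these genes. In caesium-treated against potassium-starved roots, where 4.54% of probe sets were called, SAG29 differed by -0.54, DPE1 by 0.36 and SWEETIE by 0.32, with limma adjusted p of 0.467, 0.588 and 0.448.

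The caesium response of each gene was also set against itself between tissues. Root minus shoot, it was -2.65 ± 0.8 for SAG29 (95% interval -4.34 to -0.96, adjusted p = 0.207 by limma), -0.93 ± 0.465 for AMY1 (adjusted p = 0.555 by limma), 0.43 ± 0.48 for DPE1 (adjusted p = 0.841) and -0.07 ± 0.654 for SWEETIE (adjusted p = 0.986). None was called, and 0.140% of probe sets were. AMY1 passed the filter of this fit only through shoot arrays, so its root part rests on signals below the filter. The potassium response, root minus shoot, is a description only, in a comparison where 8.37% of probe sets were called, and was -4.45 for AMY1, -4.67 for SAG29, 0.87 for DPE1 and 2.88 for SWEETIE.

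**Figure D3:**
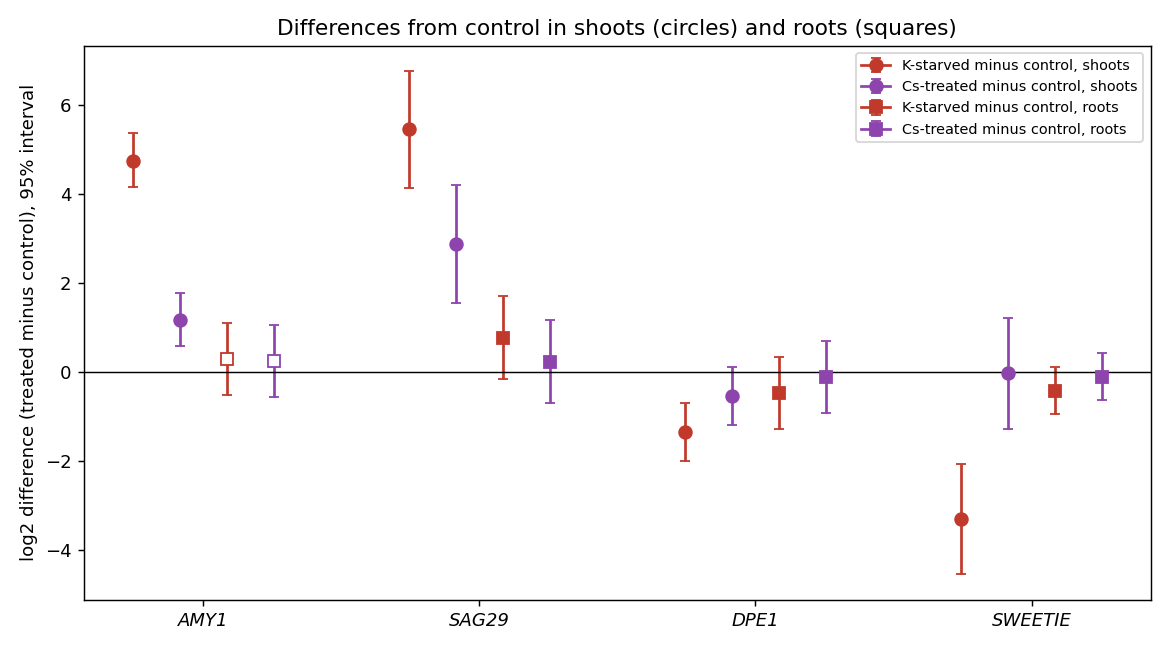
Log2 difference from control with its 95% interval (limma) for the 4 genes, in shoots (circles) and roots (squares), potassium-starved in red and caesium-treated in purple. The shoot differences under potassium starvation, from -3.30 to 5.45, are descriptive, the open squares mark AMY1 in roots, which was below the filter, and all root intervals include 0.

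Control roots against control shoots asked where the genes are used without treatment, and the control shoot arrays are shared with the comparison that chose them. DPE1 was lower in control roots, at 26.2 ± 9.23 against 142 ± 25.0 in control shoots (SD, n = 3 each), a log2 difference of -2.50 ± 0.34 with an adjusted p of 8.14e-06 by limma. Calls were common in this comparison, at 53.1% of probe sets, with 30.6% higher and 22.5% lower in roots, and groups did not overlap for 35.8% (higher) and 25.6% (lower). SAG29 was higher on all 3 control root arrays, at 20.2 ± 12.2 against 7.45 ± 2.21 in control shoots (1.32 ± 0.566, adjusted p = 0.0597, limma). It exceeded the 40th percentile on 0 of 3 control shoot and 1 of 3 control root arrays, so it was tested only because treated arrays passed the filter, and with no filter its adjusted p was 0.0765 (limma). AMY1 was lower on all 3, at 19.3 ± 8.28 against 29.3 ± 4.07 (-0.70 ± 0.329, adjusted p = 0.0836, limma). The ranges only just missed each other, with 26.7 the highest control root signal and 26.8 the lowest control shoot signal. This gene exceeded the 40th percentile on 2 of 3 control shoot and 0 of 3 control root arrays. AMY1 too was therefore tested here only because treated shoot arrays passed the filter. SWEETIE overlapped, at 69.6 ± 13.3 against 55.7 ± 12.7 (0.33 ± 0.462, adjusted p = 0.569, limma). Single arrays decided some of this. Without control root replicate 1 both SAG29 (1.58, adjusted p = 0.0498, limma) and AMY1 (-0.99, adjusted p = 0.0254, limma) were called. SAG29 was also called at 1.32 without caesium-treated shoot replicate 2 (adjusted p = 0.0241) or 3 (adjusted p = 0.0169), by limma. Without control root replicate 2 AMY1 was at -0.30, and without control root replicate 3 SAG29 was at 0.86. In all, 1 of 21 tests on the 4 genes passed in the fits without the replicate number, that of DPE1 between tissues. With that number as a block AMY1 was also called between control tissues (adjusted p = 0.0495, limma). That fit called 9278 of 16397 probe sets. AMY1 and SAG29 were called with the block in caesium-treated shoots, as given above.

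The wider set of starch and sugar genes gives the setting. Of 152 genes in 6 lists (starch breakdown, starch synthesis, SWEET transporters, other sugar carriers, sucrose metabolism and trehalose metabolism), 41 had a named probe set and 37 of those are not among the 4 genes, so the counts do not describe whole pathways. Of the 29 that were tested in shoots, 1 rose and 4 fell in potassium-starved against control shoots. Over all probe sets 11.4% rose and 16.7% fell. SWEET1, a glucose transporter, was the one that rose, with a signal of 311, 384 and 293 in potassium-starved shoots and 121, 188 and 114 in control shoots (1.26 ± 0.223, adjusted p = 0.00325, limma).

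The 4 of 29 genes that fell in potassium-starved shoots, where 16.7% of all probe sets fell, came from different lists. These were sucrose metabolism, other sugar carriers and starch synthesis. SPSC (AT4G10120), a sucrose phosphate synthase gene, had 32.6, 24.0 and 43.0 in potassium-starved shoots and 209.7, 74.8 and 89.4 in control shoots (-1.79 ± 0.43, adjusted p = 0.0129, limma). TMT1, which loads glucose into the vacuole, had 165, 122 and 149.7 in potassium-starved and 338, 305 and 314 in control shoots (-1.14 ± 0.175, adjusted p = 0.00168, limma). The starch branching enzyme gene SBE2.2 differed by -0.95 ± 0.217 (adjusted p = 0.0104, limma) and SFP2, of the family of sugar porters, by -0.71 ± 0.22 (adjusted p = 0.0361, limma). With none of these 5, which are given because they were called, did the groups overlap. Of the 29 genes, 4 lay wholly above control, 7 wholly below, and 18 overlapped. Over all probe sets 42.7% had groups without overlap. The log2 differences of the 29 ranged from -1.79 to 1.26.

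With the replicate number as a block, 4 of the 29 rose (SWEET1, APL4, CWINV6 and APL3) and 9 fell in potassium-starved shoots, where 14.9% and 23.9% of all probe sets did so. APL3 and APL4 encode large subunits of ADP-glucose pyrophosphorylase, the first committed step of starch synthesis. Beside SPSC, TMT1, SBE2.2 and SFP2, those that fell in that fit were PWD (phosphoglucan, water dikinase, which phosphorylates starch at breakdown), SWEET17 (a vacuolar fructose transporter), the vacuolar invertase gene VI1, PTST (protein targeting to starch) and SPP2 (sucrose phosphate phosphatase). The median difference of the 29 was -0.09 without the block, and that of all probe sets -0.14. Shifting all arrays to a common median moved the latter to 0.01.

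SAG29 is 1 of 16 SWEET genes with a named probe set. Besides it, 15 of the family's genes were named, and 9 of those passed the filter in shoots. Apart from SWEET1, these had differences of -0.79 to 0.47 in potassium-starved against control shoots, and none of them was called without the block. SWEET17, at -0.79, was called with it (adjusted p = 0.0275, limma). SWEET13 (0.47), a sucrose transporter like SAG29, had overlapping groups, and SWEET11 (-0.17 ± 0.2), which exports sucrose for phloem loading, had 886, 636 and 697 in potassium-starved and 819, 807 and 841 in control shoots. SWEET10 was below the filter, with 39.2, 34.6 and 21.2 in potassium-starved shoots and 11.5, 16.0 and 7.96 in control shoots, ranges that did not overlap (1.43 ± 0.358 without the filter).

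In caesium-treated against control shoots 0 of the 29 other genes was called by limma, while 0.566% of all probe sets were. The largest values were 1.04 ± 0.371 for GWD2 (AT4G24450), a glucan, water dikinase gene, with 59.5, 29.6 and 36.7 in caesium-treated and 29.4, 13.3 and 18.8 in control shoots, and 0.92 ± 0.342 for APL3. Both passed with the replicate number as a block (limma adjusted p = 0.0456 and 0.0346). CWINV6, named as a cell wall invertase, differed by 0.87 ± 0.248 (adjusted p = 0.132, limma), without overlap. In caesium-treated against potassium-starved shoots SPSC (2.09), SBE2.2 (0.95) and TMT1 (0.88) were higher and SWEET1 lower (-0.95), with limma adjusted p of 0.00802, 0.012, 0.00728 and 0.0134, in a comparison where 26.8% of probe sets were called (18.0% higher, 8.84% lower). With the replicate number as a block PWD (0.82), VI1 (0.81), SPP2 (0.78) and GWD2 (0.77) were called higher as well, with limma adjusted p of 0.00454, 0.0146, 0.0129 and 0.0346. That fit called 37.4% of all probe sets, 25.0% higher and 12.4% lower.

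In roots 0 of the 22 other genes tested was called in any of the 3 comparisons, where limma called 1.09% of all probe sets for potassium starvation, 0% for caesium, and 4.54% between the 2 treatments. The largest values in potassium-starved against control roots were 0.81 ± 0.195 for SWEET1 (adjusted p = 0.0748, limma) and -0.83 ± 0.262 for SWEET17 (adjusted p = 0.14, limma), each without overlap. Between the control tissues, roots held higher levels of 6 of 30 genes and lower levels of 12, in a comparison where 30.6% of all probe sets were higher and 22.5% lower. CWINV6 (3.77) and VI1 (2.42), PMT4 (2.02), SWEET16 (1.91) and TMT1 (1.36) led those higher in roots, and SWEET11 (-3.83), SPSC (-3.69), APL3 (-2.86) and STP3 (-2.60) those lower. All 4 named genes of starch synthesis were lower in control roots, and so was PWD (-2.16 ± 0.284), as DPE1 was.

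**Figure D4:**
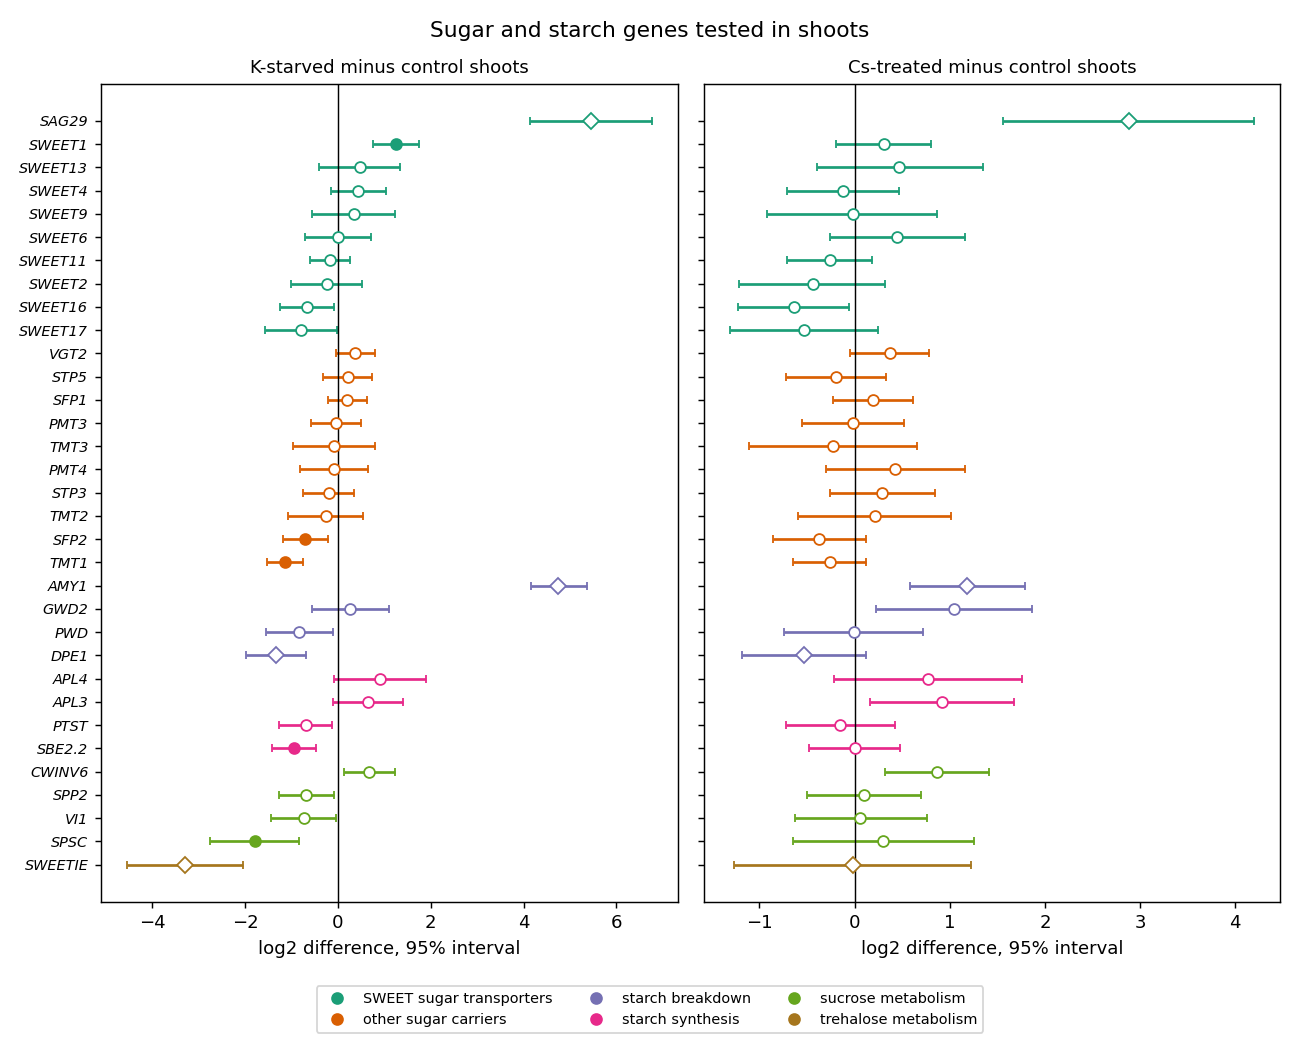
Log2 difference with its 95% interval (limma) of the sugar and starch genes that passed the filter in shoots, potassium-starved minus control on the left and caesium-treated minus control on the right, coloured by list. Diamonds are the 4 genes, which carry no test on the left, and filled circles mark the 5 others that were called, from -1.79 (SPSC) to 1.26 (SWEET1).

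SAG29 also belongs to a list of 17 senescence genes, of which 3 others had a named probe set, WRKY6, WRKY53 and SAG101. Earlier results of these data had shown these 3, so they are no independent evidence of a direction. Their differences in potassium-starved shoots are therefore given as a description with no test. For each of the 3, every potassium-starved shoot array lay above every control shoot array. Ranges of these 2 groups did not overlap, in either direction, for 42.7% of all probe sets. The share without overlap in the higher direction alone is not given here, and 11.4% of all probe sets were called higher. WRKY6, a transcription factor gene of senescing leaves, had 136, 85.6 and 89.3 in potassium-starved shoots. It had 107, 86.9 and 90.4 in caesium-treated and 36.6, 22.1 and 10.4 in control shoots. Against control, WRKY6 differed by 2.31 ± 0.384 under potassium starvation. Under caesium it differed by 2.21 ± 0.384 and was called (limma adjusted p = 0.0429), in a test that shares the control shoot arrays. That comparison called 0.566% of all probe sets, and 0 probe sets when replicate 3 of either group was left out. The potassium-starved shoot differences were 1.57 ± 0.427 for WRKY53 and 0.94 ± 0.297 for SAG101. Their caesium values of 1.15 and 0.61 were not called. None of the 3 was called in roots under either treatment against control.

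The nearest protein-coding genes on the chromosome were looked up by start position. AMY1 lies on chromosome 4 between ATGP4 and the sucrose transporter gene SWEET14. SWEET14 had 25.4, 18.0 and 22.7 in potassium-starved and 11.6, 18.4 and 16.9 in control shoots, each under the filter on low signals. ATGP4 had 348, 891 and 568 in potassium-starved and 338, 330.4 and 284 in control shoots (0.82 ± 0.297, adjusted p = 0.0607, limma). DPE1 lies on chromosome 5, and its neighbour AT5G64850 rose in potassium-starved shoots (0.81 ± 0.221, adjusted p = 0.0211, limma), opposite to DPE1, with 228, 217 and 206 against 123, 116 and 131 in control shoots. The other neighbour of DPE1, AT5G64870, had 27.4, 32.6 and 16.8 in potassium-starved and 11.5, 20.7 and 8.90 in control shoots, below that filter. The neighbours of SAG29 and SWEETIE had no named probe set.

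Genes with the most similar pattern were found by Pearson's r of log2 signals over the 18 arrays, among probe sets with 1 gene. For AMY1 these were AT1G13990 (r = 0.974), AT4G18280 (0.962) and AT3G01830 (0.961). Without the 3 potassium-starved shoot arrays, over 15 arrays, r was 0.89, 0.656 and 0.907. AT3G01830 had 332, 287 and 191 in potassium-starved, 36.6, 36.2 and 40.3 in caesium-treated and 22.4, 17.5 and 5.27 in control shoots, with no overlap among the 3 groups. For SAG29 they were AT5G19875 (0.938), AT2G37870 (0.907) and AT3G47540 (0.891), with 0.857, 0.815 and 0.72 over the 15 arrays.

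The genes closest to DPE1 kept a high r without the potassium-starved shoots. AT1G11860, AT5G15050 and AT1G07650 had r of 0.975, 0.971 and 0.967 with it over 18 arrays and 0.979, 0.975 and 0.983 over 15. AT1G11860 had 575, 305 and 621 in potassium-starved, 1154, 913 and 1110.4 in caesium-treated and 1519, 1212 and 1697 in control shoots, and 153 to 283 over the 9 root arrays. For SWEETIE the leading genes were AT3G44850 (0.958), AT3G17740 (0.957) and TGH (0.955), and over the 15 arrays r was 0.628, 0.564 and 0.63. Among the 4 genes themselves AMY1 and SAG29 had r of 0.828 over 18 arrays and 0.416 over 15, and AMY1 and SWEETIE -0.877 and -0.205. These correlations share the arrays and the tissue difference and are descriptions.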

How the data were processed

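Transcript levels were measured with ATH1 arrays on 18 samples, 3 for each of 6 groups, and groups and replicate numbers came from the sample titles. The deposited values are a linear signal intensity for each probe set, made by the authors with MAS5 per the submitters' processing notes. Neither version nor settings of MAS5 are stated in those notes. Each array's mean after trimming was 100.0, so arrays had been scaled before deposit, which fixes the mean and not the median, and MAS5's mismatch subtraction leaves low log2 signals noisy.

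Of 22746 probe sets left without the 64 control probe sets, the platform annotation gave 1 gene for 13513, several for 503 and none for 8730. A probe set without a name there is unnamed, not without a gene. Names were matched to RefSeq (TAIR10.1), which also gave the neighbours, by the start positions of protein-coding genes. Signals were put on the log2 scale without a pseudocount. Tests covered probe sets above the 40th percentile of the array on 3 or more arrays of a fit. The 9 arrays of a tissue were fitted together with limma 3.58.1 in R 4.3.3 (lmFit, eBayes with trend). Control roots against control shoots and the differences in response between tissues came from 1 fit of all 18 arrays. Tests were two-sided, adjusted by Benjamini-Hochberg over all probe sets tested, and called at an adjusted p under 0.05. The fit was tested on simulated data. With no read depth in array data, the number of arrays limits the precision. The labels do not call the replicates separate cultures. P-values therefore measure only the spread among these arrays, which may be technical.

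The 4 genes and the lists were chosen with earlier results of these data known. By the rule for named genes the text gives the 4 genes throughout, up to 4 called genes per direction of each list, or the 2 of smallest p where none was called, and the 3 most similar genes. Genes described outside it (SWEET10, SWEET11, SWEET13, SWEET17 and the neighbours) were chosen after their values were seen, or for their position. Same-numbered shoot arrays deviated together (r of deviations from group means 0.195 to 0.603 in the 3 shoot comparisons, the highest between different numbers 0.0482). The labels do not say what a number shares. In caesium-treated and control roots every same-number r was also over 0.1 (0.165 to 0.441), although 1 r between different numbers reached 0.175. Alternatives were a pseudocount of 16, no filter, quantile normalization, a common array median, array weights, the replicate block, other sets of arrays in the fit and each array left out.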

Additional observations from a re-analysis of the deposited data

Results flagged for a closer look

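TMT1, the vacuolar glucose importer, responded to potassium starvation differently in the tissues by the interaction test (root minus shoot 1.24 ± 0.191, adjusted p = 0.00125, limma, where 8.37% of probe sets were called). It had 868, 893 and 866 in potassium-starved and 796, 766 and 898 in control roots (0.10 ± 0.131), against the fall of 1.14 on the log2 scale in shoots. It was called in 24 of 24 alternatives, from 1.12 to 1.34.

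WRKY53, a transcription factor gene of leaf senescence, had a potassium response, root minus shoot, of -2.48 ± 0.528 (log2, SE). Its difference in potassium-starved shoots was known from earlier results of the same arrays, so this value is a description. It had 164, 118 and 116 in potassium-starved and 79.7, 41.7 and 25.6 in control shoots, and 35.6, 28.5 and 20.9 in potassium-starved and 61.9, 43.1 and 52.9 in control roots. Over the alternatives it ranged from -2.91 to -1.90. The summed signal of the shoot markers moved the same way as TMT1 in shoots, and its part in these differences was not tested. None of AMY1, SAG29, DPE1 and SWEETIE was called for its caesium response by that test, and their potassium response was not tested.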

How the results depend on the processing

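The sizes given for low signals depend on the pseudocount. With 16 added to each signal, potassium-starved against control shoots gave 4.15 for AMY1, 3.83 for SAG29 and -1.63 for SWEETIE, and SWEETIE was at 1.61 in caesium-treated against potassium-starved shoots (2.26 with array weights). The potassium response, root minus shoot, was then -3.39 for SAG29 and 1.31 for SWEETIE. DPE1 between control tissues was called under every alternative run, each array left out included.

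In caesium-treated against control shoots AMY1 was called with array weights (1.33) and the replicate block (1.18), and SAG29 with array weights (3.57), the replicate block (2.88) and all 18 arrays in 1 fit (2.88). Between control roots and control shoots AMY1 was called with a common median (-0.76) and the replicate block (-0.70), and SAG29 with array weights (1.60). Signs turned with array weights for SAG29 in caesium-treated against control roots (-0.04) and, for SWEETIE's caesium response, root minus shoot, with quantile normalization (0.02) and array weights (0.09). The causes were not tested.

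Counts of called probe sets varied with the setting. In caesium-treated against control shoots the count was 83, and 159 with the pseudocount, 34 with no filter, 20 with a common median, 1196 with array weights, 681 with the replicate block, 49 from 6 arrays, 480 from 18 arrays and 1 without the shoot arrays numbered 2. Without those arrays potassium-starved against control shoots gave 2651 (4116 with them) and caesium-treated against potassium-starved shoots 1640 (3935). Potassium-starved against control roots gave 158, and 105 with no filter, 1076 with array weights, 735 with the replicate block, 71 from 6 arrays and 76 from 18. Caesium-treated against control roots gave 0, and 1 with the pseudocount, 21 with array weights, 42 with the replicate block and 27 from 18 arrays. Caesium-treated against potassium-starved roots gave 655, and 2548 with array weights and 1574 with the replicate block. The caesium response between tissues gave 23, and 35 with a common median, 237 with array weights and 66 with the replicate block. Of the other sugar and starch genes 1 rose in potassium-starved shoots, and 2 with no filter, quantile normalization, array weights or 18 arrays, 3 with a common median and 4 with the replicate block, while 4 fell, and 9 with the block.

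Replicate numbers did not pair all arrays of potassium-starved and control roots or of the control tissues, where same-numbered arrays correlated at -0.0385 to 0.512. In caesium-treated against potassium-starved roots the same-number r was 0.287, 0.0876 and 0.257. Each exceeded its highest r between different numbers (-0.17, -0.0378 and 0.171). The block called SWEET1 and SFP1 (higher) and SWEET17 (lower) in potassium-starved against control roots. In caesium-treated against potassium-starved roots it called SPP2 (higher), SFP1 and TMT1 (lower).

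With each array left out in turn, the ranges were as follows. In the 3 root comparisons those of SAG29 and DPE1 cover only 6 of the 9 arrays left out. In the rest the gene fell below the filter and was not fitted. Potassium-starved against control shoots gave 4.45 to 4.98 for AMY1, 5.19 to 5.67 for SAG29, -1.63 to -0.97 for DPE1, -4.08 to -2.85 for SWEETIE, 2358 to 3930 probe sets called, 1 to 3 other sugar and starch genes that rose and 3 to 5 other sugar and starch genes that fell. Caesium-treated against control shoots gave 1.06 to 1.36 for AMY1, 2.09 to 3.59 for SAG29, -0.62 to -0.39 for DPE1, -0.23 to 0.16 for SWEETIE and 0 to 159 probe sets called. Caesium-treated against potassium-starved shoots gave -3.79 to -3.27 for AMY1, -3.35 to -1.86 for SAG29, 0.44 to 1.10 for DPE1, 2.83 to 4.06 for SWEETIE and 1894 to 3869 probe sets called. Potassium-starved against control roots gave 0.51 to 1.06 for SAG29, -0.80 to -0.24 for DPE1, -0.58 to -0.20 for SWEETIE and 28 to 218 probe sets called. Caesium-treated against control roots gave -0.03 to 0.35 for SAG29, -0.44 to 0.04 for DPE1, -0.27 to 0.07 for SWEETIE and 0 to 7 probe sets called. Caesium-treated against potassium-starved roots gave -0.83 to -0.42 for SAG29, 0.14 to 0.61 for DPE1, 0.10 to 0.48 for SWEETIE and 126 to 702 probe sets called. Control roots against control shoots gave -0.99 to -0.30 for AMY1, 0.86 to 1.58 for SAG29, -2.70 to -2.16 for DPE1, 0.13 to 0.50 for SWEETIE and 7857 to 9088 probe sets called. Caesium response, root minus shoot gave -1.32 to -0.64 for AMY1, -3.36 to -1.86 for SAG29, 0.10 to 0.63 for DPE1, -0.26 to 0.13 for SWEETIE and 0 to 59 probe sets called. Potassium response, root minus shoot gave -4.85 to -4.15 for AMY1, -4.95 to -4.21 for SAG29, 0.50 to 1.17 for DPE1, 2.44 to 3.67 for SWEETIE and 862 to 1894 probe sets called. The count for caesium-treated against control shoots was 0 without replicate 3 of either group. Values near 0 turned in sign in that way: SWEETIE in caesium-treated against control shoots (0.10, 0.07 and 0.16) and roots (0.07 and 0.00), SAG29 (-0.03) and DPE1 (0.04) in the same root comparison, and SWEETIE in the caesium response between tissues (0.05, 0.13, 0.09 and 0.02).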
